A study of Triticum aestivum with 6 samples.

Results

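The window described here was a row of neighbouring genes on chromosome 7D of common wheat, from TraesCS7D02G086500 to TraesCS7D02G092500, taken as every gene of the deposited count table with an identifier in that range. It held 38 of the 70043 listed genes. The window was chosen because many of its genes had more counts in the mutant than in Fielder. The difference between the groups in these genes is therefore a description, and no test of the window is given. Calls of single members, defined below, rest on the same libraries as that choice and are no separate support for the difference. Axillary buds, the side buds that grow into tillers, were taken from seedlings of the wheat cultivar Fielder and of the tatfl1-5 mutant (aabbdd), with 3 libraries of each, and their RNA was sequenced. Values are given in the order of replicates 1, 2 and 3 throughout. The mutant was a single transgene-free line made in Fielder with CRISPR/Cas9, a nuclease guided by RNA, and carries null alleles of TaTFL1-5 in the A, B and D subgenomes. Fielder plants were untransformed, and the seedling age of the mutant is given differently in the results and the methods of the study. Because the mutant is 1 line, differences from editing TaTFL1-5 and differences that the line carries for another reason cannot be told apart.

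Common wheat is a hexaploid, and most of its genes exist as related copies, called homoeologs, on the A, B and D chromosomes of a group. Chromosome 7A is therefore a place to look for relatives of a 7D window. The listed genes from TraesCS7A02G090000 to TraesCS7A02G098000 were taken as context, together with the 20 listed genes on either side of the window on 7D. Copies in the B subgenome were not taken as context. Genes that arose by local duplication often lie next to each other, and reads from near-identical copies can be split between neighbours or homoeologs when they are counted. TFL1 proteins belong to the phosphatidylethanolamine-binding family and are known for delaying the change of shoot meristems to flowering. The identifiers name a chromosome and an order of genes along it, starting at the end of the short arm, and no annotation at hand pairs these identifiers with a gene name, a sequence or a position in bases. No function is therefore given for any member.

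The libraries held between 13320461 and 17174131 counts, and 52228 genes passed edgeR's filter on low counts and were tested. Expression within a gene is given as counts, or as CPM, which relates the counts to the TMM-normalized library size. Levels of different genes are compared only as the deposited FPKM, which is also scaled to gene length. A gene is said to be called when it changed by more than 2-fold with an adjusted p-value under 0.05 in edgeR's quasi-likelihood test. Log2 fold changes are those of mutant over Fielder and are given with their standard error (SE). Of all tested genes, 7.98% were called higher and 5.75% lower, and the median log2 fold change was 0.0046. For the edited gene TaTFL1-5A (TraesCS5A02G128600) the counts were 9, 14 and 21 in Fielder against 1, 7 and 5 in the mutant. TaTFL1-5B (TraesCS5B02G127600) had 46, 44 and 31 against 20, 19 and 23. Every mutant library was lower than every Fielder library in both genes, as in 21% of all tested genes, but neither was called. No values of TaTFL1-5D are given here. In bulk buds, a larger share of the cells that express a gene and more RNA per cell cannot be told apart.

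Of the 38 members, 26 were tested, and 14 of these were called higher and 1 lower, beside 7.98% and 5.75% of all tested genes. Nothing is read from this difference, since the window was chosen by it. The median log2 fold change of the 26 tested members was 1.31, and the members ranged from -1.31 to 4.51. Over all 38 members, every mutant library lay above every Fielder library in 21 and below in 3, and the groups overlapped in 14. Counting the 26 tested members alone, 17 were above and 3 below, beside 22.2% and 21% of all tested genes. The 12 members that were not tested had few counts in most libraries, and 4 of them lay higher in every mutant library. The shares of all genes given here cover tested genes alone. Neither this 4 nor the 21 and 3 of all 38 members therefore has a matching share beside it, and nothing is read from them. The summed expression of the window was 99.7, 97.2 and 99.6 CPM in Fielder replicates 1, 2 and 3, and 362, 301 and 405 CPM in mutant replicates 1, 2 and 3. The difference was not spread evenly over the window. It fell into 3 stretches, named here after the values were seen: 8 genes without a called difference at the start, 13 genes at the centre that held nearly all of the difference, and 17 genes of mixed direction at the end.

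**Figure D1:**
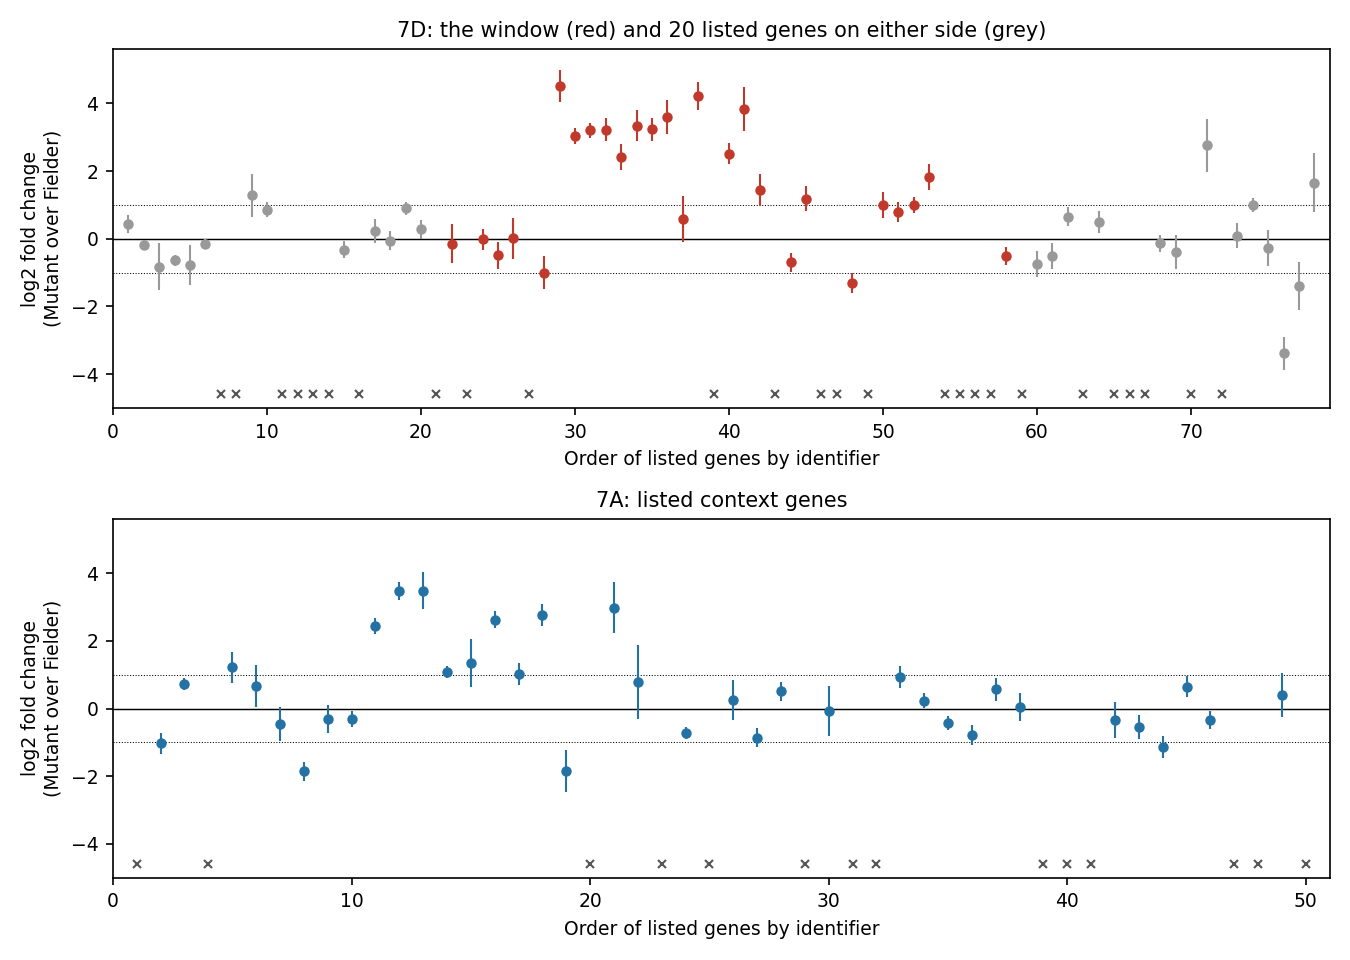
Log2 fold change of mutant over Fielder (vertical axis, with its standard error) for listed genes in the order of their identifiers (horizontal axis), on 7D above and on 7A below. Dots are tested genes, crosses at the bottom are listed genes that were not tested, dotted lines mark log2 fold changes of 1 and -1, and the block of red dots above 2 is the run from TraesCS7D02G087500 to TraesCS7D02G088800.

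The centre of the window ran from TraesCS7D02G087500 to TraesCS7D02G088800. Its summed expression was 33.4, 26.1 and 35.0 CPM in the Fielder libraries and 291, 221 and 331 CPM in the mutant libraries, an 8.91-fold higher mean in the mutant. These 13 genes made up between 26.8% and 35.1% of the CPM of the window in Fielder and between 73.3% and 81.9% in the mutant. Of the 13 genes, 12 were tested and 11 were called higher, each at a log2 fold change above 2, beside 1.96% of all tested genes. Their fold changes lay between 5.36 and 22.8, with 9.40 as the median. In each of these 11 genes the lowest mutant library was above the highest Fielder library, by a factor between 1.97 for TraesCS7D02G088000 and 8.53 for TraesCS7D02G087500.

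The 6 called genes of the centre with a mean above 4 FPKM in Fielder are given first. TraesCS7D02G087600 had counts of 146, 89 and 93 in Fielder against 1029, 812 and 960 in the mutant. Its level was 11.4 ± 4.73 FPKM in Fielder and 89.1 ± 10.5 FPKM in the mutant (SD, n = 3 each), the highest mean of the 13 genes in both groups, with a log2 fold change of 3.05 ± 0.24 (SE). TraesCS7D02G087700, the next gene in the row, had counts of 80, 84 and 160 in Fielder against 917, 1079 and 988 in the mutant. These 2 neighbours were alike in level, and the latter reached 9.62 ± 2.85 FPKM in Fielder and 85.6 ± 8.76 FPKM in the mutant (SD, n = 3 each), with a log2 fold change of 3.21 ± 0.22 (SE). TraesCS7D02G087800 had counts of 49, 46 and 36 in Fielder against 499, 204 and 550 in the mutant, or 4.54 ± 1.23 FPKM in Fielder and 40.3 ± 18.6 FPKM in the mutant (SD, n = 3 each). Mutant replicate 2 was well under the other mutant libraries in this gene, yet still above all Fielder libraries, and the log2 fold change was 3.22 ± 0.34 (SE). TraesCS7D02G088000 showed the same order of mutant libraries, with counts of 46, 40 and 54 in Fielder against 322, 102 and 339 in the mutant. Its log2 fold change of 2.42 ± 0.38 (SE) was the lowest of the 11, and its level was 5.29 ± 0.71 FPKM in Fielder and 27.3 ± 14.4 FPKM in the mutant (SD, n = 3 each). TraesCS7D02G088200 had counts of 58, 42 and 72 in Fielder against 557, 290 and 787 in the mutant. The mutant libraries differed by more than 2-fold among themselves here, and the levels were 4.36 ± 1.01 FPKM in Fielder and 39.5 ± 19.3 FPKM in the mutant (SD, n = 3 each), with a log2 fold change of 3.23 ± 0.33 (SE). TraesCS7D02G088700 had counts of 43, 55 and 23 in Fielder against 228, 209 and 276 in the mutant, or 4.09 ± 1.83 FPKM in Fielder and 22.2 ± 4.12 FPKM in the mutant (SD, n = 3 each). Its mutant libraries lay closer together than those of the other genes just named except the first pair, and its log2 fold change was 2.52 ± 0.32 (SE).

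A second set of genes in the centre had few counts in Fielder. TraesCS7D02G087500, the first gene of the block, had counts of 4, 2 and 17 in Fielder against 213, 131 and 186 in the mutant. It had the largest log2 fold change of all tested members, 4.51 ± 0.48 (SE), at 0.621 ± 0.596 FPKM in Fielder and 14.4 ± 3.29 FPKM in the mutant (SD, n = 3 each). TraesCS7D02G088100 had counts of 4, 28 and 30 in Fielder against 329, 145 and 161 in the mutant, with Fielder replicate 1 far under the other Fielder libraries. Its level was 1.99 ± 1.33 FPKM in Fielder and 19.999 ± 8.86 FPKM in the mutant (SD, n = 3 each), with a log2 fold change of 3.35 ± 0.46 (SE). TraesCS7D02G088300 had counts of 3, 10 and 25 in Fielder against 147, 92 and 220 in the mutant, or 1.18 ± 0.941 FPKM in Fielder and 14.5 ± 6.61 FPKM in the mutant (SD, n = 3 each). Its Fielder libraries were spread widely, and the log2 fold change was 3.61 ± 0.50 (SE). TraesCS7D02G088500 had counts of 9, 6 and 32 in Fielder against 283, 235 and 360 in the mutant. The level was 1.17 ± 0.932 FPKM in Fielder and 21.9 ± 5.54 FPKM in the mutant (SD, n = 3 each), with a log2 fold change of 4.23 ± 0.41 (SE), and Fielder replicate 3 again held most of the Fielder counts. TraesCS7D02G088800, the last gene of the block, had counts of 5, 0 and 27 in Fielder against 206, 92 and 156 in the mutant, with 27 of the 32 Fielder counts in replicate 3. Its level was 0.694 ± 0.878 FPKM in Fielder and 10.027 ± 3.61 FPKM in the mutant (SD, n = 3 each), with a log2 fold change of 3.83 ± 0.65 (SE). TraesCS7D02G088600 was not tested, with counts of 0, 0 and 1 in Fielder against 17, 5 and 18 in the mutant, and its ratio of summed counts was 39.5 (95% exact interval from 6.70 to 1599, for counting error alone).

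The groups overlapped in a single gene inside the block. TraesCS7D02G088400 had counts of 14, 4 and 31 in Fielder against 17, 28 and 28 in the mutant, and its log2 fold change was 0.59 ± 0.68 (SE). Its neighbours on both sides, TraesCS7D02G088300 and TraesCS7D02G088500, were among the genes with the largest fold changes. It was also the longest gene of the block, with a length of 1608 bases implied by its counts and FPKM values, while the other 12 had between 405 and 935.

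**Figure D2:**
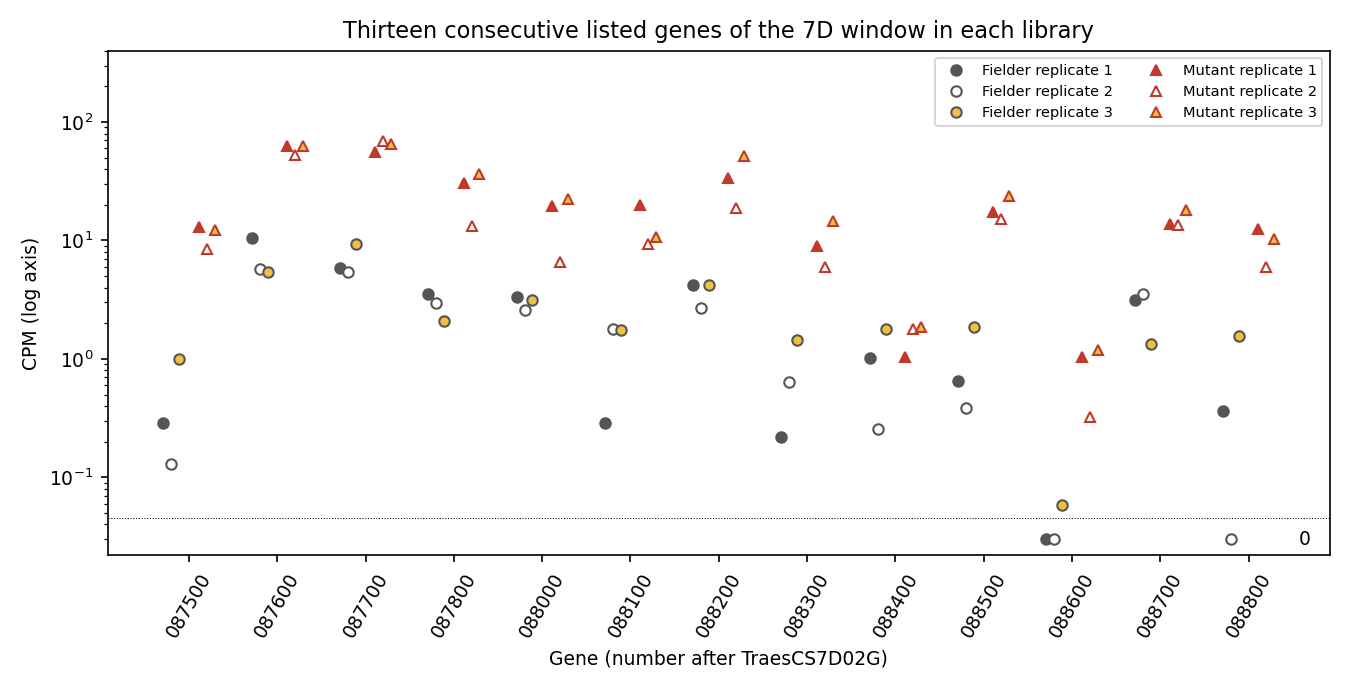
CPM (vertical log axis) of the 13 consecutive listed genes from TraesCS7D02G087500 to TraesCS7D02G088800 in each of the 6 libraries. Circles are Fielder and triangles are mutant libraries, symbols under the dotted line are at 0, and the triangles lie above the circles for every gene except TraesCS7D02G088400.

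Among the 11 called genes of the centre, those with a lower level in Fielder had the larger fold changes. The 5 genes with a mean under 2 FPKM in Fielder (0.621 to 1.99) were between 10.2 and 22.8-fold higher in the mutant, where they reached 10.03 to 21.9 FPKM. The 6 genes with a mean above 4 FPKM in Fielder (4.09 to 11.4) were between 5.36 and 9.40-fold higher and reached 22.2 to 89.1 FPKM. The sets met in the mutant, where the highest mean of the 5, 21.9 ± 5.54 FPKM for TraesCS7D02G088500, differed from the lowest of the 6, 22.2 ± 4.12 FPKM for TraesCS7D02G088700, by less than the SD of either. The Fielder level is itself part of the fold change, so these values are not independent of each other. In 4 of the 5 lower genes Fielder replicate 3 was the highest Fielder library, with a median of 3.59 times the mean of replicates 1 and 2, against 1 of the 6 higher genes and a median of 0.865. Over all tested genes this ratio had a median of 0.995, and over the tested genes among the 20 before and the 20 after the window it was 1.23 and 1.39. Without Fielder replicate 3 the fold change of TraesCS7D02G087500 was 52.5 in place of 22.8, that of TraesCS7D02G088300 21.8 in place of 12.2, that of TraesCS7D02G088500 35.8 in place of 18.7 and that of TraesCS7D02G088800 53.1 in place of 14.2. Each of the 11 genes was called in all 6 fits that left out a library. These fits used the libraries on which the window was chosen, so they show dependence on single libraries and give no separate support.

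The 8 listed genes before the block, from TraesCS7D02G086500 to TraesCS7D02G087300, included no called gene. Their summed expression was 20.4, 13.6 and 12.8 CPM in Fielder and 12.8, 10.7 and 12.9 CPM in the mutant, so that the groups overlapped. TraesCS7D02G086700 had counts of 20, 30 and 14 in Fielder against 18, 21 and 20 in the mutant, a log2 fold change of -0.15 ± 0.57 (SE). TraesCS7D02G086900 had counts of 52, 58 and 83 in Fielder against 71, 51 and 69 in the mutant, a log2 fold change of -0.02 ± 0.31 (SE). TraesCS7D02G087100 had counts of 22, 15 and 22 in Fielder against 30, 10 and 21 in the mutant, a log2 fold change of 0.01 ± 0.60 (SE). In all 3 genes the libraries of the groups were interleaved. TraesCS7D02G087000 had counts of 129, 60 and 57 in Fielder against 75, 67 and 43 in the mutant, where Fielder replicate 1 stood apart from the others, with a log2 fold change of -0.49 ± 0.40 (SE). TraesCS7D02G087300, the immediate neighbour of the block, had counts of 58, 35 and 42 in Fielder against 16, 17 and 36 in the mutant. Its log2 fold change of -0.998 ± 0.49 (SE) was the lowest of the stretch and was opposite in sign to that of TraesCS7D02G087500, the next listed gene. TraesCS7D02G086800 had counts of 0, 12 and 2 in Fielder against 0, 0 and 4 in the mutant and was not tested. The remaining 2 genes, TraesCS7D02G086500 and TraesCS7D02G087200, had at most 2 counts in any library.

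The 17 listed genes after the block, from TraesCS7D02G089000 to TraesCS7D02G092100, had smaller differences and both signs. Of the 9 that were tested, 3 were called higher and 1 lower, beside 7.98% and 5.75% of all tested genes. Every mutant library lay above every Fielder library in 6 of the 9 and below in 3, beside 22.2% and 21% of all tested genes. The window was chosen on this comparison, so these counts are a description. The summed expression of all 17 was 45.9, 57.6 and 51.8 CPM in Fielder against 58.6, 69.7 and 60.5 CPM in the mutant. TraesCS7D02G091500 had counts of 16, 27 and 44 in Fielder against 137, 110 and 64 in the mutant, the largest fitted log2 fold change of the stretch at 1.83 ± 0.38 (SE), with all mutant libraries above all Fielder libraries. TraesCS7D02G089000 had counts of 14, 17 and 25 in Fielder against 31, 62 and 58 in the mutant, a log2 fold change of 1.43 ± 0.47 (SE). TraesCS7D02G089500 had counts of 26, 61 and 42 in Fielder against 67, 126 and 100 in the mutant, a log2 fold change of 1.18 ± 0.36 (SE). These last 2 genes had little room between the groups, and each was called in only 2 of the 6 fits that left out a library. The call of TraesCS7D02G089000 was lost without Fielder replicate 1 or 2 or mutant replicate 2 or 3, and that of TraesCS7D02G089500 without Fielder replicate 1 or 3 or mutant replicate 2 or 3.

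In a further set of 3 genes of this stretch all mutant libraries lay above all Fielder libraries, but none of the 3 was called. TraesCS7D02G091300 had counts of 86, 111 and 158 in Fielder against 227, 289 and 192 in the mutant, at 7.8 ± 1.43 FPKM in Fielder and 14.9 ± 2.88 FPKM in the mutant (SD, n = 3 each), the highest mutant level of the stretch. Its log2 fold change of 0.995 was just under 1, and it passed that limit without Fielder replicate 3, mutant replicate 1 or mutant replicate 3. TraesCS7D02G091000 had counts of 26, 30 and 36 in Fielder against 51, 77 and 57 in the mutant, a log2 fold change of 0.996 ± 0.37 (SE). TraesCS7D02G091200 had counts of 53, 78 and 79 in Fielder against 98, 170 and 98 in the mutant, a log2 fold change of 0.79 ± 0.30 (SE). Mutant replicate 2 was the highest mutant library in all 3 of these genes.

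Another 3 genes of the stretch were lower in every mutant library. TraesCS7D02G090800, the only member called lower, had counts of 98, 203 and 175 in Fielder against 81, 64 and 48 in the mutant, a log2 fold change of -1.31 ± 0.29 (SE). Its level was 12.1 ± 3.53 FPKM in Fielder and 4.66 ± 1.0 FPKM in the mutant (SD, n = 3 each), which made it the most abundant gene of the stretch in Fielder. TraesCS7D02G089400 had counts of 200, 225 and 215 in Fielder against 151, 73 and 177 in the mutant, a log2 fold change of -0.70 ± 0.28 (SE). TraesCS7D02G092100, the last listed gene of the window, had counts of 92, 124 and 93 in Fielder against 70, 69 and 81 in the mutant, a log2 fold change of -0.51 ± 0.27 (SE). Neither of these 2 was called.

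The other 8 genes of the stretch had too few counts to be tested. TraesCS7D02G091800 had counts of 0, 2 and 3 in Fielder against 12, 8 and 15 in the mutant, and its ratio of summed counts, scaled to library size, was 6.92 (95% exact interval from 2.70 to 22.6). TraesCS7D02G091900 had 3, 4 and 3 counts against 6, 10 and 20, a ratio of 3.56 (95% exact interval from 1.73 to 8.04). TraesCS7D02G092000 had no count in Fielder and 10, 4 and 2 in the mutant, and was at least 1.71-fold higher against a floor of 3 counts per library. These 3 neighbours were low in both groups but did not overlap, and the intervals cover counting error only. TraesCS7D02G090000 had 0, 8 and 10 counts against 4, 5 and 0, and TraesCS7D02G090900 had 14, 2 and 6 against 16, 6 and 6, so both overlapped between the groups. TraesCS7D02G089300, TraesCS7D02G089700 and TraesCS7D02G091700 had at most 4 counts in any library.

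Just outside its start lay TraesCS7D02G086400, with counts of 50, 76 and 108 in Fielder against 107, 88 and 89 in the mutant and a log2 fold change of 0.28 ± 0.29 (SE), and just inside it TraesCS7D02G086500, with 0, 1 and 0 counts against 0, 0 and 2. The genes next to TraesCS7D02G086400 were TraesCS7D02G086300, with counts of 182, 227 and 218 in Fielder against 376, 477 and 330 in the mutant, and TraesCS7D02G086100, with counts of 95, 130 and 92 in Fielder against 129, 80 and 103 in the mutant. All mutant libraries were above all Fielder libraries in TraesCS7D02G086300, which was 1.86-fold higher (log2 value 0.90 ± 0.19 (SE)), at an adjusted p = 0.00336 by edgeR, short of the 2-fold limit for a call. Just inside the other end lay TraesCS7D02G092100, given above, and just outside it TraesCS7D02G092700, with counts of 3, 7 and 8 in Fielder against 24, 19 and 0 in the mutant and a ratio of summed counts of 2.36 (95% exact interval from 1.33 to 4.35, counting error only), with mutant replicate 3 at 0. The following genes, TraesCS7D02G092800 and TraesCS7D02G092900, had log2 fold changes of -0.75 ± 0.38 (SE) and -0.51 ± 0.39 (SE), with overlapping CPM values in both. Of the 20 listed genes before the window 13 were tested, with 0 called and a median log2 fold change of -0.05, and of the 20 after it 13 were tested, with 1 called higher, 1 called lower and a median of -0.13. The edges of the window were set on this comparison of mutant and Fielder, so the contrast between the window and the genes around it is a description. The gene called higher was TraesCS7D02G095000, which had counts of 2, 3 and 3 in Fielder against 24, 17 and 16 in the mutant, a log2 fold change of 2.76 ± 0.78 (SE), adjusted p = 0.0175 by edgeR, and a call that was lost without Fielder replicate 2 or any 1 mutant library. The gene called lower was TraesCS7D02G095900, with counts of 104, 263 and 573 in Fielder against 40, 33 and 14 in the mutant, a log2 fold change of -3.39 ± 0.47 (SE). Its fold change depended on Fielder replicate 3, without which the log2 value was -2.74.

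The mutant libraries differed from each other in the centre of the window in a direction that the choice of the window did not use. In 10 of the 12 tested genes there, mutant replicate 2 was the lowest mutant library, against 36.2% of all tested genes. The ratio of its CPM to the mean of mutant replicates 1 and 3 had a median of 0.640 over the 12 genes and 0.989 over all tested genes. Among the 11 called genes it ranged from 0.314 in TraesCS7D02G088000 to 1.15 in TraesCS7D02G087700, the only one of them in which mutant replicate 2 was the highest. In the 9 tested genes after the block the median ratio was 1.40, and mutant replicate 2 was the lowest mutant library in 1 gene, TraesCS7D02G089400. The genes lie side by side in the same 3 libraries and are not independent of each other, so these values describe the libraries and carry no test.

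**Figure D3:**
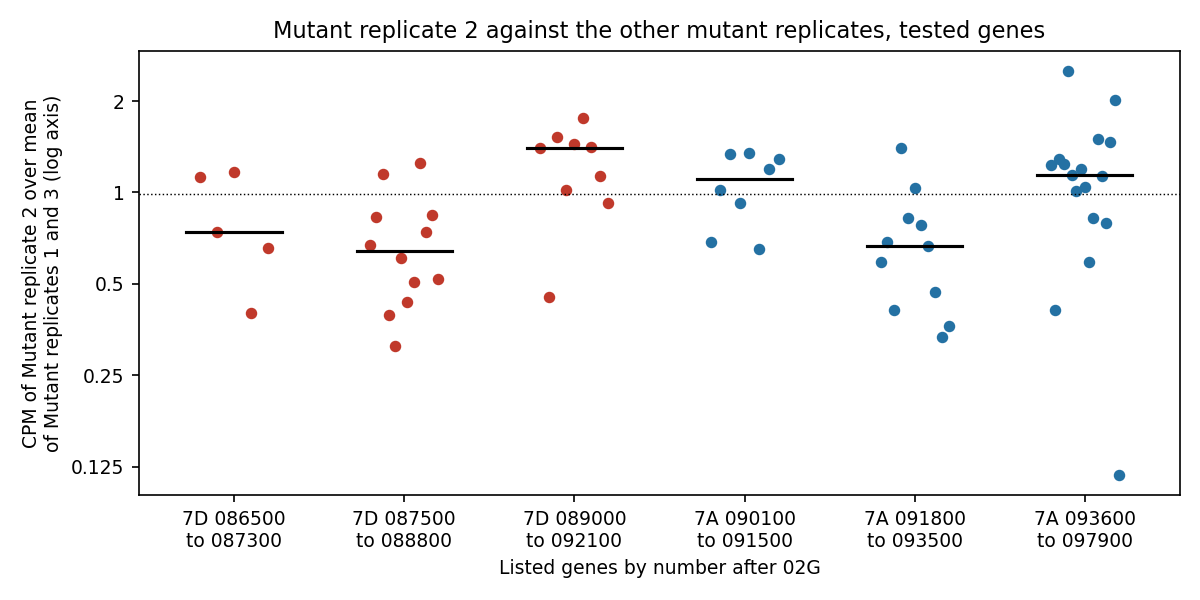
Ratio of the CPM of mutant replicate 2 to the mean of mutant replicates 1 and 3 (vertical log axis) for each tested gene. Red dots are the 3 stretches of the 7D window and blue dots are 3 stretches of the 7A context, all set after the values were seen. Black bars are medians and the dotted line is the median of all tested genes, 0.989, with the central stretches of 7D and 7A at 0.640 and 0.667.

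Gene lengths in the centre were short. Counts and FPKM values of a gene imply a single gene length in all libraries where it was counted. The median over the 13 listed genes of the centre was 667 bases, beside 1609 over all listed genes. The 11 called genes of the centre had lengths from 582 to 935 bases, and since this range was taken from them, their own share in it is no result. Such lengths were found in none of the 8 before it, in 3 of the 17 after it and in 11.5% of all listed genes. Of the 20 listed genes on either side of the window, 2 before and 3 after were in this range. Outside the 7D window and the 7A context, 5071 tested genes had lengths in this range, of which 11.8% were called higher and 4.95% lower, with a median log2 fold change of 0.21. A log2 fold change above 2 with a call was reached by 152 of these 5071 genes.

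**Figure D4:**
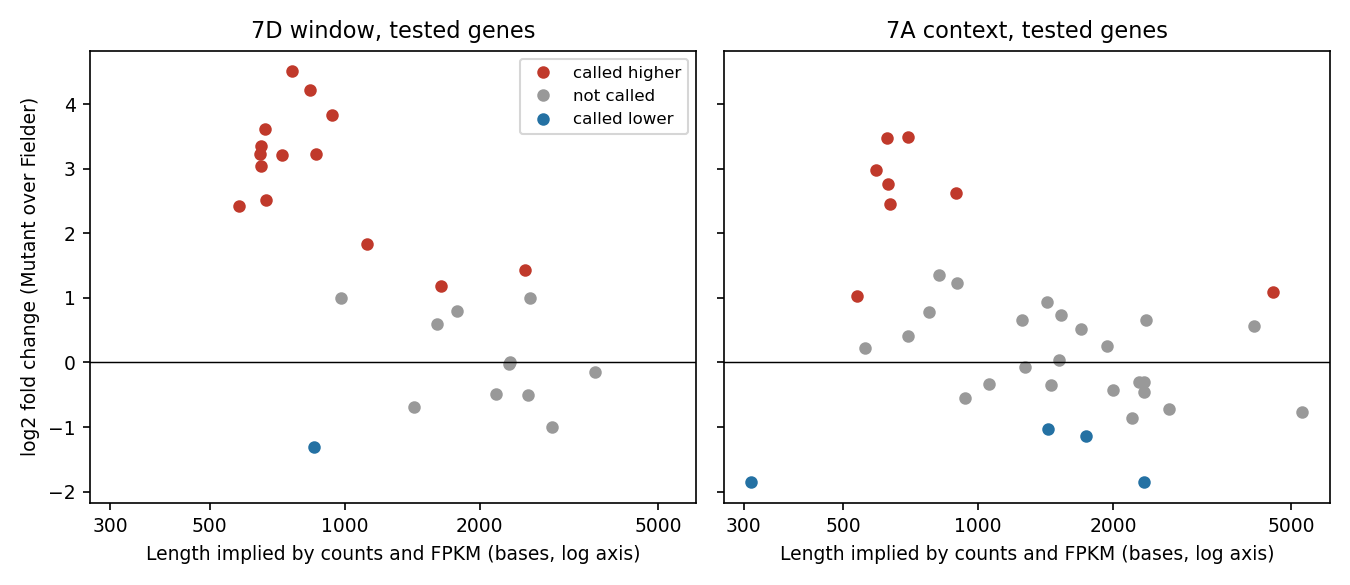
Log2 fold change of mutant over Fielder (vertical axis) against the gene length implied by counts and FPKM (horizontal log axis) for the 26 tested genes of the 7D window and the 36 tested genes of the 7A context. The red dots above a log2 fold change of 2 lie between 582 and 935 bases in both panels.

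On chromosome 7A the 50 listed genes of the context included a stretch that resembled the centre of the 7D window. Of the 36 tested genes, 8 were called higher and 4 lower in edgeR's quasi-likelihood test, against 7.98% and 5.75% of all tested genes, and the median log2 fold change was 0.33. All 8 genes called higher lay between TraesCS7A02G091800 and TraesCS7A02G093300. In this stretch and up to TraesCS7A02G093500, 12 genes were listed and 11 tested, 9 of the 12 had lengths from 582 to 935 bases, and the median log2 fold change was 2.45. The edges of this 7A stretch were set after the values were seen, so its median and sums are a description. The summed expression of the 50 genes was 281 ± 20.2 CPM in Fielder and 456 ± 19.5 CPM in the mutant (SD, n = 3 each), 1.63-fold higher. An exact permutation test gave a two-sided p = 0.1. This is the smallest that 3 against 3 libraries allow, so the test cannot decide whether the groups differ. The sum rose only in the stretch up to TraesCS7A02G093500. Mutant over Fielder, the ratio of summed CPM was 0.997 for the 10 listed genes before that stretch and 0.844 for the 28 after it. The libraries of the groups overlapped in both of these sums. The 7A range was chosen by its numbers as the counterpart of the 7D window with earlier results of these data known.

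The gene of the 7A stretch with the largest fold change was TraesCS7A02G092000, with counts of 4, 8 and 6 in Fielder against 80, 35 and 93 in the mutant, a log2 fold change of 3.49 ± 0.54 (SE) and an adjusted p of 4.0e-04 in edgeR. TraesCS7A02G091900 had counts of 99, 56 and 103 in Fielder against 950, 735 and 1220 in the mutant, a log2 fold change of 3.47 ± 0.26 (SE) and an adjusted p of 1.3e-06 in the same test. Its level was 9.13 ± 3.02 FPKM in Fielder and 96.8 ± 27.8 FPKM in the mutant (SD, n = 3 each), in the range of TraesCS7D02G087600 and TraesCS7D02G087700, the most abundant genes of the 7D block. TraesCS7A02G091800, the first gene of the stretch, had counts of 106, 100 and 124 in Fielder against 607, 411 and 801 in the mutant, or 5.45-fold more in the mutant (adjusted p = 1.1e-05 in edgeR). TraesCS7A02G092900 had counts of 23, 16 and 28 in Fielder against 177, 114 and 171 in the mutant, or 6.77-fold more (adjusted p = 4.8e-05 in edgeR). TraesCS7A02G092700 had counts of 49, 42 and 94 in Fielder against 351, 386 and 403 in the mutant, or 6.17-fold more (adjusted p = 9.5e-06 in edgeR). The groups did not overlap in any of these genes, and each was called in all 6 fits that left out a library. TraesCS7A02G093300 had counts of 1, 8 and 5 in Fielder against 60, 16 and 38 in the mutant, or 7.9-fold more (adjusted p = 0.00955 in edgeR), and was not called without mutant replicate 1, while without Fielder replicate 2 its fold change was 12.2.

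The other 2 genes called higher on 7A had changes near the limit of the call. TraesCS7A02G092300 had counts of 720, 983 and 1157 in Fielder against 1971, 2484 and 1647 in the mutant, a log2 fold change of 1.09 ± 0.17 (SE) (adjusted p = 5.1e-04 in edgeR). With an implied length of 4549 bases it was unlike the other genes of the stretch, its mutant replicate 2 was the highest mutant library, and its log2 fold change fell under 1 without Fielder replicate 1 or mutant replicate 2. TraesCS7A02G092800 had counts of 116, 67 and 54 in Fielder against 163, 140 and 199 in the mutant, a log2 fold change of 1.02 ± 0.33 (SE) (adjusted p = 0.0321 in edgeR), and was not called without Fielder replicate 2 or 3 or mutant replicate 1 or 3. In the same stretch TraesCS7A02G093000 was called lower, with counts of 31, 38 and 26 in Fielder against 15, 5 and 7 in the mutant, a log2 fold change of -1.85 ± 0.62 (SE) (adjusted p = 0.0405 in edgeR). That call was lost without Fielder replicate 1 or 2 or mutant replicate 2 or 3, so the 7A stretch held a gene of the opposite direction on few counts.

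The remaining 3 genes called lower on 7A lay outside the raised stretch. TraesCS7A02G091300 had counts of 154, 160 and 139 in Fielder against 53, 31 and 44 in the mutant, a log2 fold change of -1.86 ± 0.29 (SE) (adjusted p = 3.9e-04 in edgeR), and was called in all 6 fits that left out a library. TraesCS7A02G090400 had counts of 95, 112 and 105 in Fielder against 74, 39 and 43 in the mutant, a log2 fold change of -1.03 ± 0.31 (SE) (adjusted p = 0.0233 in edgeR). TraesCS7A02G096800 had counts of 103, 129 and 90 in Fielder against 71, 42 and 38 in the mutant, a log2 fold change of -1.13 ± 0.32 (SE) (adjusted p = 0.018 in edgeR). The calls of these last 2 were both lost without Fielder replicate 2, mutant replicate 2 or mutant replicate 3.

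The 12 listed genes of the 7A stretch summed to 85.2, 85.5 and 94.2 CPM in Fielder and 273, 281 and 305 CPM in the mutant, a 3.24-fold higher mean, beside the 8.91-fold of the 7D block. Mutant replicate 1 was the lowest mutant library in this sum, whereas mutant replicate 2 was the lowest in the 7D block. Most of the Fielder sum on 7A came from TraesCS7A02G092300. Without that gene, a choice made after its values were seen, the 7A sums were 32.9, 22.3 and 26.8 CPM in Fielder and 153, 121 and 197 CPM in the mutant, a 5.73-fold higher mean with mutant replicate 2 the lowest. Over the 11 tested genes of the 7A stretch the ratio of mutant replicate 2 to the mean of the other mutant libraries had a median of 0.667, and mutant replicate 2 was the lowest in 9 of them. High values in Fielder replicate 3 were not shared by the 7A stretch, with a median ratio to the other Fielder libraries of 1.02 there and 1.67 over the 12 tested genes of the 7D block. They were not particular to that block either. The same median was 1.23 before and 1.39 after the 7D window, and 0.758 and 1.04 in its first and last stretch. Reads of similar copies on 7A and 7D could have been exchanged in counting, and the part of this in the values was not tested. Summed expression was higher in every mutant library than in every Fielder library in both stretches. The edges of both were set around the raised genes after the values were seen, so this is a description.

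Along all chromosomes, 51810 windows of 20 consecutive tested genes had a median of 1 gene called higher. The largest number, 14, was found in the window from TraesCS7D02G087500 to TraesCS7D02G091500, as the choice of this region implies. The next largest that did not overlap it were 13 on chromosome 6B, from TraesCS6B02G081600 to TraesCS6B02G084900, and 11 on chromosome 5D, from TraesCS5D02G334100 to TraesCS5D02G338000. After these came 9 on chromosome 6D and 9 in another window on 7D, from TraesCS7D02G042000 to TraesCS7D02G047600. The highest number in the 7A context was 8, which was also reached on chromosomes 1A, 1B, 1D, 2A, 3A, 4A, 4B, 6A and 7B.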

How the data were processed

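Axillary buds of Fielder and the tatfl1-5 mutant were sequenced in 6 libraries, 3 of each, and groups and replicate numbers were taken from the sample titles. The authors mapped filtered reads to the wheat reference from Ensembl Plants, and the counts per gene were deposited for each library without normalization. The aligner and the counter are not given in the sources used here. The authors also deposited FPKM values, scaled to gene length and library total. The length of a gene was computed from its counts and FPKM values. It agreed within 0.1% between the libraries with counts in all 70043 genes, which a gene counted in a single library cannot fail. None of the identifiers matched the reference gene table (0 matches).

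The count test was edgeR 4.0.16 in R 4.3.3 with filterByExpr, TMM normalization, the quasi-likelihood test over all 6 libraries and Benjamini-Hochberg adjustment over 52228 genes. Standard errors of log2 fold changes were derived from the F statistic (absolute change over root F). Members with few counts were given as ratios of summed counts with exact binomial intervals. Library totals lay between 13320461 and 17174131 counts, so that 3 counts were worth 0.175 to 0.218 CPM. The study calls the replicates biological, but nothing says whether they came from separate plants, and p-values measure the spread between these libraries. The scripts were tested on simulated data.

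The members and the context genes were chosen with earlier results of these data known. Each member with at least 10 counts in a library, the 3 genes next to each end, the called genes among the 20 on either side and the called genes of the 7A context were named, with TaTFL1-5A and TaTFL1-5B. Other genes are named for comparison. The stretches within the window and within the 7A context were set after seeing the values. Alternatives were DESeq2 1.42.0, RLE size factors or plain library sizes, the edgeR test against a 2-fold change, other filters, leaving out each library, a replicate block, and limma 3.58.1 with a trend on FPKM values (log2 with a pseudocount of 1 or 0.1). Added after seeing the data were the counts of calls of the central stretches and the values of single 7A genes under these alternatives. Python 3.11.15, scipy 1.17.1 and matplotlib 3.10.9 made the summaries and figures.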

Additional observations from a re-analysis of the deposited data

How the results depend on the processing

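The 11 called genes of the central 7D stretch were also called with DESeq2 and in the edgeR test of a change beyond 2-fold. Both used the 6 libraries on which the window was chosen, so these calls are no separate support for the difference. Among the 384 log2 fold changes of 26 tested members under 15 alternatives, no called member changed sign, though calls were lost as given above. TraesCS7D02G086700, TraesCS7D02G086900, TraesCS7D02G087000 and TraesCS7D02G087100, which were not called, took both signs. A minimum of 10 counts in every library left 6 called genes in the central 7D stretch, because fewer genes were tested. The edgeR test against the 2-fold threshold left 5 in the 7A stretch. Called higher in the whole window were 11 to 16 genes over the alternatives and 13 to 15 over the fits without a library, for a median log2 fold change of 1.15 to 1.65 over the latter. On log2(FPKM + 1) that median was 0.82. The 2-fold test called 902 genes higher and 494 lower among all genes, 0 lower in the window, 0 higher in the 20 genes after it, and 5 higher and 1 lower on 7A. The limma test on log2(FPKM + 1) called 2728 genes higher among all genes, 0 higher in the 20 after the window and 2 lower on 7A, where the median log2 fold change was 0.14, or 0.11 on log2(FPKM + 0.1). In the 20 genes after the window, 2 were called higher without a filter on low counts. In the 20 genes before it, the median was 0.24 with at least 10 counts in every library. Leaving out a library gave 0 to 1 genes called higher before the window, 0 to 2 after it, and 1 to 5 called lower on 7A. The cause of these changes was not tested, beyond fewer genes or libraries in a fit.

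With the replicate number as a block, 13 genes of the window and 9 on 7A were called higher, 2 in the 20 genes after the window, and 4297 higher and 2928 lower among all genes. Same-numbered libraries of the groups did not deviate together, with correlations of -0.024, 0.051 and 0.0094 across genes. Genes with fewer than 10 counts in Fielder are limited by depth, as is the fold change of any of them.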
